A study of Mus musculus with 18 samples.

Results

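Histone genes were followed in uninjured retinas of 2 mouse strains, C57BL/6J and DBA/2J, and in retinas taken after optic nerve crush, an injury in which the axons of the retinal ganglion cells are squeezed behind the eye. Members were chosen by name, with earlier results of these data known. They are all probes whose current gene symbol begins with H1f, H2ac, H2bc, H2ax, H2az, H3c, H3f or H4c, followed by digits or by nothing. This gave 95 probes for 66 genes out of 46116 probes (17658 named genes) on the array. Of these, 87 probes (59 genes) belong to the clustered histones, namely H1f1 to H1f6 and all H2ac, H2bc, H3c and H4c genes, and 8 probes (7 genes) belong to the variant histones H1f7, H1f8, H1f10, H2ax, H2az1, H3f3a and H3f3b. The clustered genes lie on chromosome 13 (49 genes) and chromosome 3 (10 genes). By family there were 7 clustered H1, 28 H2A, 16 H2B, 14 H3 and 22 H4 probes. No filter on low signal was applied, so that all 95 probes were tested.

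Control, 2 days after crush and 5 days after crush made 6 groups over both strains, and every group had 3 arrays. The 2 retinas of a single mouse, labelled male and 60 to 90 days old, supplied the RNA for an array. C57BL/6J and DBA/2J are inbred strains with no engineered allele, and the controls received no crush. The crush injures all axons at once, and RNA came from whole retina, in which ganglion cells are a minority, so that fewer cells of a type and less RNA per cell cannot be told apart.

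Histones package DNA: an octamer of H2A, H2B, H3 and H4 forms the nucleosome core, and linker H1 binds where DNA enters and leaves it. The clustered genes are known as replication-dependent, are transcribed mainly in S phase, and give mRNAs that end in a stem-loop rather than a poly(A) tail. The variant genes are transcribed throughout the cell cycle, give polyadenylated mRNAs in most cases, and replace the clustered proteins in cells that no longer divide. Nearly all neurons of the adult retina have left the cell cycle. The labelling kit used here primes on poly(A), and the share of clustered transcripts that it captured was not tested.

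The promoters of 5 members are shown because these genes stand for the core families in the results below: the H2A, H2B, H3 and H4 genes H2ac20, H2bc22, H3c2 and H4c8, all lower after crush, and the variant H3f3a, which was not called. Each run is the 250 bases before the RefSeq start, 5′ to 3′ on the gene's strand, in build GRCm38.p6. Capitals mark CCAAT (the CCAAT box), TATAAA (the TATA box) and ATTTGCAT (the octamer that Oct factors bind), each read on both strands, so that reverse complements are in capitals too. Each motif was counted on its own, also where it overlapped another.
H2ac20, chr3:96220881-96221130 (minus strand): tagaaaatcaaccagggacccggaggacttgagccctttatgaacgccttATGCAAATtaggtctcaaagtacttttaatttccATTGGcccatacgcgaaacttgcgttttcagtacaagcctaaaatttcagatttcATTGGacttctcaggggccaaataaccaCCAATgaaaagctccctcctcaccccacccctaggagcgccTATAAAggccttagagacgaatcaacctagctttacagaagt
H2bc22, chr13:21787238-21787487 (plus strand): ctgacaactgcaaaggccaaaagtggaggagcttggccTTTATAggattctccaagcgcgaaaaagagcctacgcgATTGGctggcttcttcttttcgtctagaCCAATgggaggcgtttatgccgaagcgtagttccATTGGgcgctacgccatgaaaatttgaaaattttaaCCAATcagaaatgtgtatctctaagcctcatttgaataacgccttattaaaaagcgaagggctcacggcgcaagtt
H3c2, chr13:23752095-23752344 (plus strand): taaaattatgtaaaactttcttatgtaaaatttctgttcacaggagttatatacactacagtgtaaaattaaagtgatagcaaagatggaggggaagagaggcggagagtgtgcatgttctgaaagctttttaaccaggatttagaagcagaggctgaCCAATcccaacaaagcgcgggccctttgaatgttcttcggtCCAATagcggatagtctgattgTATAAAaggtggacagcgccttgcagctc
H4c8, chr13:23530794-23531043 (plus strand): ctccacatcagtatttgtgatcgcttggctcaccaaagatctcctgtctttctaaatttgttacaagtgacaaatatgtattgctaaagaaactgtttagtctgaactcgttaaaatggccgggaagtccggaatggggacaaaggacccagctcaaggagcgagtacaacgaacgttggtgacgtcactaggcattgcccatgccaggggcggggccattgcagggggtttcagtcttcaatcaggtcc
H3f3a, chr1:180813606-180813855 (minus strand): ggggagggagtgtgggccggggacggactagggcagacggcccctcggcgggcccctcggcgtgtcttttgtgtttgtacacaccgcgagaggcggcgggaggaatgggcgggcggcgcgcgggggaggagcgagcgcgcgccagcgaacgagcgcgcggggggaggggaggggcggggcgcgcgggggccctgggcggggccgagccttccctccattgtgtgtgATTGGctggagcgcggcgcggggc

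RefSeq promoter entries were at hand for 61 of the 66 genes, in 62 windows. CCAAT was present in 16 of 16 windows of clustered H2A genes, 14 of 14 of H2B, 6 of 6 of H1, 8 of 10 of H3 and 3 of 10 of H4, against 33.8% of all 32851 windows of the same length. The octamer was found in 6 of 16 H2A and 7 of 14 H2B windows, in none of the H1, H3 or H4 windows of the clustered genes, and in 1.6% of all windows. Every H2A match lay on the opposite strand and every H2B match on the gene's own strand. Whether windows of neighbouring H2A and H2B genes overlap, so that a match is read in both, was not analysed. TATAAA was found in 27 of 56 clustered windows, and in 12.4% of all windows. H3f3b was the only variant with TATAAA and with the octamer in its window. These are matches of letters and no test of factor binding was made.

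Values are given as the level, 2 times the z-score of log2 intensity within an array plus 8, the scale used in the study. Every array then has a mean of 8, and 1 unit corresponded to 0.56 log2, or 1.47-fold, on the median array. Between arrays 1 unit ran from 0.51 to 0.66 log2, so a bright probe can read a lower level on an array of wider spread. Statements that arrays lay below, above or within the controls refer to this level, not to the signal before scaling. A probe was called when its adjusted p in limma (1 mean per group over 18 arrays, Benjamini-Hochberg over all 46116 probes) was under 0.03. The median signal per array ran from 131.5 to 210.4. Replicate 1 of the C57BL/6J controls read 11.27 for Xist and 7.02 for the Y-linked Eif2s3y, against 7.2 to 7.55 and 13.05 to 13.15 in the other two C57BL/6J controls, which goes against its male label. The 8 lens genes measured differed widely between arrays, with a mean level of 9.36 to 16.49 in C57BL/6J controls, 7.32 to 12.13 at 2 days and 7.1 to 9.04 at 5 days, and of 7.01 to 7.58, 8.19 to 12.27 and 7.46 to 9.49 in the same order in DBA/2J. Of 9 ganglion cell markers all 9 were lower at 5 days over the strains, and Thy1 (-2.25 ± 0.31 units, SE; adjusted p = 0.00103) and Rbpms (-1.99 ± 0.19 units, adjusted p = 7.58e-05) passed the limma test. All 8 microglial markers were higher, 5 of them called, and the mean level of that list was 7.01 to 7.45 over the controls of both strains and 7.42 to 9.02 over the 5-day arrays. The part of these cell types in the histone results was not tested.

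A subset of the clustered histone probes fell after crush over the mean of the strains. The variants gave no call, but at 2 days their errors or low levels left little room to call a fall of 1 unit. Over the mean of the strains, 14 of 87 clustered probes (12 genes) were called at 2 days and 22 of 87 (19 genes) at 5 days, and all of these calls were lower. Among all probes of the array 0.18% were called at 2 days and 4.81% at 5 days, and 0.111% and 2.06% were called lower. The median change of the clustered probes was -0.41 units at 2 days and -0.23 units at 5 days, beside -0.01 and -0.06 units for all probes. At either time 23 clustered probes of 20 genes were called. The 13 called at both times made up 92.9% of the 2-day list and 59.1% of the 5-day list, and both lists use the same control arrays. None of the 95 probes was called between 5 days and 2 days in limma (0.0564% of all probes), where 11 clustered probes and 1 variant had an unadjusted p under 0.05. That cutoff was passed by 4403 of all 46116 probes. Leaving out 1 array at a time gave 7 to 17 called probes at 2 days and 14 to 23 at 5 days, and a variance trend with intensity gave 2 and 18.

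Most calls came from probes of higher level. Of the 50 clustered probes with a mean level of 8 or more, 13 were called at 2 days and 20 at 5 days, with median changes of -0.90 and -0.72 units, whereas of the 37 under 8, 1 and 2 were called, with medians of -0.09 and -0.12. Probes of high level drifted downwards on the array as a whole at 5 days, so the members were also set beside probes of like level. Between levels 12 and 14 the 12 clustered probes had a median change of -1.09 units at 2 days and -1.06 at 5 days, against -0.02 and -0.13 for the 1798 probes of that band. Between 14 and 16 the medians of the 8 clustered probes were -1.09 and -1.08, against -0.04 and -0.27 for 681 probes. In these 2 bands 10 of 12 and 7 of 8 clustered probes lay below the 5th percentile of all probes of their band at 2 days, and 7 of 12 and 3 of 8 did at 5 days. Between 8 and 10, 13 of 19 clustered probes did so at 2 days and 8 of 19 at 5 days, with medians of -0.63 and -0.47 units. Between 10 and 12, 5 of 9 and 2 of 9 did, with medians of -0.62 and -0.38 units. All probes had medians of 0.06 and 0.15 units between 8 and 10, and of 0.02 and 0.06 between 10 and 12. The contrast of medians was thus smaller in these lower bands. The share below the 5th percentile was not lower throughout, with 8 of 19 between 8 and 10 at 5 days against 3 of 8 between 14 and 16. Above 16 the 2 clustered probes, H1f2 and the bright H2bc4 probe, had medians of -0.40 and -0.68 units, against -0.22 and -0.64 for all 336.

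**Figure D1:**
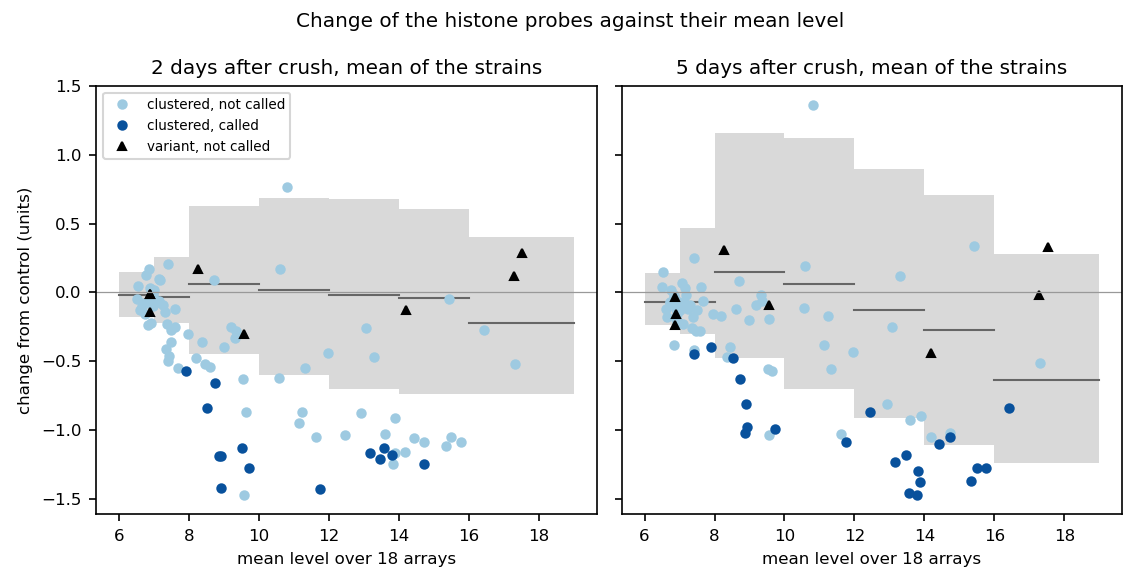
Change from control at 2 days (left) and 5 days (right), as the mean of the strains in units, against the mean level over 18 arrays; points are the 95 histone probes, grey boxes span the 5th to 95th percentile of all probes in a band of level and the dark line is their median. The called clustered probes (dark blue, 14 at 2 days and 22 at 5 days) lie at or below the lower edge of the grey boxes, with exceptions at high levels at 5 days, and the variants (triangles) lie within or near the boxes.

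Within C57BL/6J, 4 clustered probes were called at 2 days (H2ac11, H2ac13, H2ac20 and H3c2; 0.0195% of all probes) and 9 at 5 days (1.36% of all probes), each of them lower. Within DBA/2J none was called at 2 days (0.0% of all probes in limma), and H2ac20 was called at 5 days (0.0672% of all probes). At 2 days 25 clustered probes in DBA/2J had an unadjusted p under 0.05 in limma, all lower. Of all 46116 probes 2945 had such a p, 1867 of them lower. All 3 arrays at 2 days lay below all 3 controls for 40 of 87 clustered probes in C57BL/6J and 22 of 87 in DBA/2J, and at 5 days for 38 and 26. As shares these were 46.0% and 25.3% at 2 days, beside 6.51% and 7.73% of all probes, and 43.7% and 29.9% at 5 days, beside 15.5% and 10.5% of all probes. Without the control whose Xist level goes against its label, 1 probe in place of 4 was called in C57BL/6J at 2 days and 3 in place of 9 at 5 days, whereas over the strains the counts were 11 and 18. The counts within a strain also moved with other arrays, from 0 to 6 at 2 days and from 3 to 7 at 5 days in C57BL/6J when 1 array was left out.

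No difference between the strains in the change after crush passed the test. None of the 95 probes was called for the difference between the strains in change at 2 days or at 5 days (0.0% of all probes at each time in limma). At 2 days the change was more negative in DBA/2J for 17 of 87 clustered probes. The median difference, DBA/2J minus C57BL/6J, was 0.20 units (all probes -0.01). An unadjusted p under 0.05 in limma was found for 12 clustered probes, and for 1910 of all 46116 probes. H2ac11 stood first, with a difference of 1.56 ± 0.33 units (SE; limma, adjusted p = 1). In controls it was 1.27 ± 0.23 units lower in DBA/2J (limma, adjusted p = 0.104). At 2 days it read 12.94, 13.01 and 12.77 in C57BL/6J and 13.69, 12.93 and 12.98 in DBA/2J. The 2-day groups hold C57BL/6J replicate 3 and DBA/2J replicate 1, which an earlier analysis found near the controls of the other strain. The part of these arrays in the differences at 2 days was not tested. At 5 days the median difference was 0.08 units and 1 clustered probe had an unadjusted p under 0.05 (1951 of all 46116 probes). Of the 87 clustered probes 64 were lower in both strains at 2 days and 61 at 5 days. All 9 C57BL/6J calls of the later time were lower in DBA/2J too, by 0.55 to 1.43 units, and in 8 of them no DBA/2J 5-day array overlapped the controls.

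**Figure D2:**
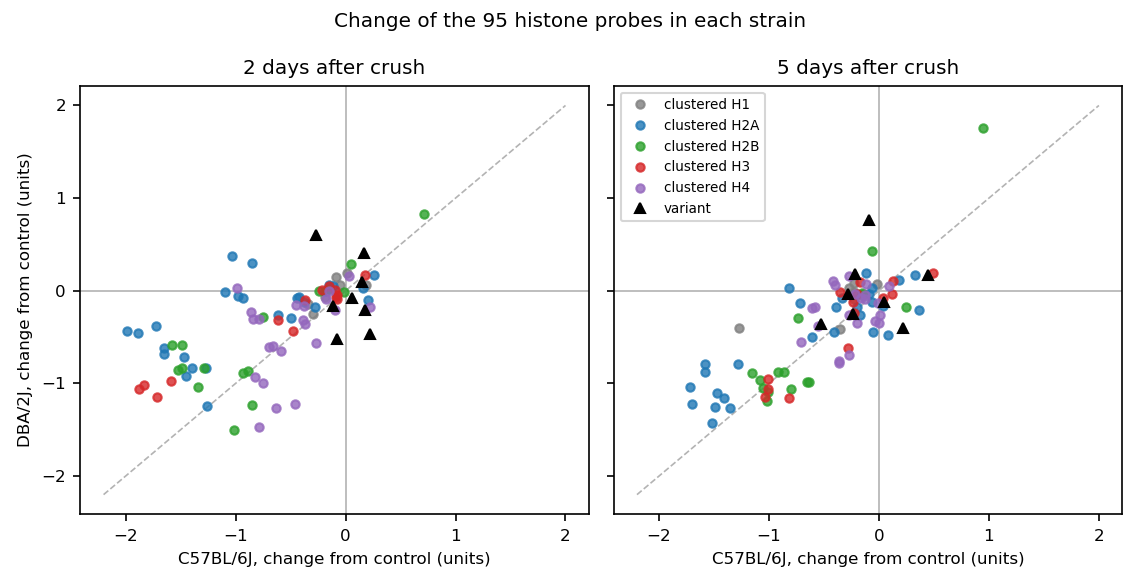
Change from control in DBA/2J against that in C57BL/6J, in units, for the 95 histone probes at 2 days (left) and 5 days (right); colours give the clustered families, triangles the variants, and the dashed line marks equal change. At 2 days 64 and at 5 days 61 of the 87 clustered probes have negative changes in both strains, and at 2 days several H2A probes lie left of the centre with changes near 0 in DBA/2J.

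H2A was the family with most probes. Of its 28 clustered probes 4 were called at 2 days and 9 at 5 days over the strains, with medians of -0.42 and -0.34 units. H2ac20 (probe 2030600, gene on chr3:96220413-96220880) carried the smallest adjusted p of the 95 at 5 days. Its level was 15.06, 14.88 and 14.98 in C57BL/6J controls, 13.43, 13.70 and 13.45 at 2 days, and 13.86, 13.33 and 13.18 at 5 days. In DBA/2J it was 14.43, 14.33 and 14.39 in controls, 13.80, 13.35 and 13.24 at 2 days, and 12.97, 13.18 and 12.73 at 5 days. All 12 crushed arrays were below all 3 controls of their strain. The change over the strains was -1.18 ± 0.13 units at 2 days (SE; limma, adjusted p = 0.00177) and -1.47 ± 0.13 at 5 days (adjusted p = 2.98e-05). On quantile-normalized intensity H2ac20 stood at 58.3% of control at 2 days and 60.3% at 5 days in C57BL/6J, and at 72.2% and 60.0% in DBA/2J.

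H2ac11 (probe 101450286) was 15.19, 14.71 and 14.78 in C57BL/6J controls, 12.94, 13.01 and 12.77 at 2 days and 13.65, 13.32 and 12.99 at 5 days. In DBA/2J it was 13.41, 13.93 and 13.55 in controls, 13.69, 12.93 and 12.98 at 2 days and 12.88, 13.13 and 12.50 at 5 days. No crushed C57BL/6J array overlapped the controls, and in DBA/2J 1 of 3 arrays at 2 days reached into the range of the controls. Over the strains H2ac11 fell by 1.21 ± 0.16 units at 2 days (limma, adjusted p = 0.00667) and by 1.18 ± 0.16 at 5 days (adjusted p = 0.00103). Both probes of H2ac13 were called at both times, with changes of -1.13 and -1.17 units at 2 days and -1.46 and -1.23 at 5 days. Both probes of H2ac24 (-1.30 and -1.38 units), and H2ac7 (-1.37), H2ac19 (-1.28) and H2ac10 (-1.28), were called at 5 days alone. Their adjusted p in limma lay between 0.00419 and 0.0184. At 2 days the same probes changed by -1.25, -1.17, -1.12, -1.05 and -1.09 units in this order (limma, adjusted p between 0.0313 and 0.182). The bright probe of H2ac10 ranged from 15.96 to 17.17 in C57BL/6J controls and from 14.37 to 15.68 in the 6 crushed arrays. In DBA/2J it ranged from 16.15 to 17.19 in controls and from 14.89 to 16.43 after crush, and 1 array at 2 days lay within the range of the controls. The other H2ac10 probe (-1.03 ± 0.31 units, adjusted p = 0.0579) and the other H2ac19 probe (-0.25 ± 0.21, adjusted p = 0.512), named after their values were seen, were not called in limma at 5 days.

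Several of these probes moved almost as 1 over the 18 arrays. The difference between H2ac7 and H2ac19 had an SD of 0.08 units over the arrays, beside SDs of 0.77 and 0.74 for each probe, and that between H2ac11 and the H2ac13 probe 102480368 an SD of 0.14 beside 0.76 and 0.74. For H2ac7 and H2ac10, H2ac7 and H2ac24, and H2ac19 and H2ac24, the SD of the difference was 0.19 to 0.20. Clustered H2A genes are near-identical copies, so that a probe may read several of them, and the counts of genes above are counts of annotated names. The probe sequences were not analysed here.

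H2B gave the lowest family medians, -0.97 units at 2 days and -0.84 at 5 days over 16 probes, of which 3 and 5 were called. A smaller share of its probes than in the other families had a mean level under 8, and the medians were not matched for level. The share called at 5 days was 31.2% in H2B and 32.1% in H2A. H2bc22 (probe 5690079) was 15.71, 15.37 and 15.27 in C57BL/6J controls, 14.87, 13.95 and 14.50 at 2 days and 14.44, 14.19 and 14.57 at 5 days. In DBA/2J its levels were 15.86, 15.12 and 15.59, then 14.11, 13.76 and 14.21, then 14.42, 14.56 and 14.45. On this scale no crushed array reached the controls of its strain. Before scaling, the signal of C57BL/6J 5-day replicate 3 was 5361.6, above the C57BL/6J controls (3297.8 to 4288.1). The fall was 1.25 ± 0.16 units at 2 days (limma, adjusted p = 0.00512) and 1.05 ± 0.16 at 5 days (adjusted p = 0.00172). H2bc6 fell by 1.19 ± 0.15 units (adjusted p = 0.00512) and 1.02 ± 0.15 units (adjusted p = 0.00159) at the same times. H2bc21 was called at both times (-1.19 and -0.81 units), and H2bc14 (-1.10) and H2bc12 (-0.87) at 5 days. At 2 days H2bc14 and H2bc12 changed by -1.06 and -1.04 units and were not called. The bright H2bc4 probe was not called at any time (16.51 to 18.47 over the C57BL/6J arrays and 16.72 to 17.95 over the DBA/2J arrays). H2bc7, the other of the 2 brightest, ran from 15.75 to 16.10 in C57BL/6J controls and from 13.51 to 14.99 after crush in that strain, but was as low as 13.60 in 1 DBA/2J control, and was not called.

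Of the 14 clustered H3 probes, 3 were called at 2 days and 4 at 5 days. H3c2 (probe 4780092) had levels of 9.91, 10.32 and 10.47 in C57BL/6J controls, 8.55, 8.39 and 8.27 at 2 days and 9.27, 8.87 and 9.53 at 5 days. In DBA/2J it had 9.36, 8.93 and 9.36, then 8.56, 7.99 and 8.06, then 8.48, 8.35 and 7.98. No crushed array overlapped the controls of its strain, and in C57BL/6J the 5-day arrays lay between the other groups. Its change was -1.42 ± 0.15 units at 2 days (limma, adjusted p = 0.00177) and -0.98 ± 0.15 at 5 days (adjusted p = 0.00173). H3c4 (-1.28 and -0.99 units) and H3c15 (-1.43 and -1.09) were called at both times, and H3c11 (-0.45), a dim probe, at 5 days. H3c11 changed by -0.46 units at 2 days and was not called then. The other H3c4 probe changed by -0.18 ± 0.09 units at 5 days and was not called (limma, adjusted p = 0.239). H3c10 and H3c13, the 2 brightest of the family, were not called and varied between replicates. They changed by -0.05 ± 0.37 and -0.47 ± 0.51 units at 2 days, and by 0.34 ± 0.37 and 0.12 ± 0.51 at 5 days.

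Of the 22 clustered H4 probes 4 were called at 2 days and 3 at 5 days, with medians of -0.51 and -0.17 units. H4c8 (probe 104480180) was 9.14, 9.27 and 9.32 in C57BL/6J controls, 8.79, 8.27 and 8.56 at 2 days and 8.67, 8.48 and 8.44 at 5 days, and in DBA/2J 9.10, 9.03 and 9.18, then 8.46, 8.54 and 8.49, then 8.48, 8.61 and 8.57. It was lower in every crushed array. The change was -0.66 ± 0.08 units at 2 days (limma, adjusted p = 0.00512) and -0.63 ± 0.08 at 5 days (adjusted p = 0.000761). The other 2 probes of H4c8 changed by -0.47 ± 0.15 (adjusted p = 0.0666) and 0.07 ± 0.08 units at 5 days. Both probes of H4c11 were called at 2 days (-0.84 and -0.57 units) and at 5 days (-0.48 and -0.40), and H4c1 at 2 days (-1.13). The bright probes of H4c18 and H4c9, the 2 brightest, were not called after crush. They changed by -0.87 ± 0.24 and -0.95 ± 0.27 units at 2 days (limma, adjusted p = 0.194 and 0.208). At 5 days the changes were -0.17 ± 0.24 and -0.38 ± 0.27 units. Among all 24 histone genes with several probes, 7 had probes on both sides of 0 at 5 days.

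Of the linker histones H1 only H1f2 was called, at 5 days, by -0.84 ± 0.21 units (limma, adjusted p = 0.0264). It was 16.97, 16.78 and 16.79 in C57BL/6J controls and 15.72, 15.90 and 15.10 at 5 days, whereas in DBA/2J it was 16.88, 16.64 and 16.73 in controls and 16.58, 15.57 and 16.89 at 5 days. The C57BL/6J groups did not overlap in level, and 1 of 3 DBA/2J arrays at 5 days lay above the controls. Before scaling, the H1f2 signal of C57BL/6J 5-day replicate 3 was 6836.4, above the C57BL/6J controls (5652.1 to 6701.2). On quantile-normalized intensity H1f2 stood at 77.7% of control in C57BL/6J and 97.4% in DBA/2J at that time. The call was kept in 1 of 12 fits that left out an array. H1f2 had a mean level of 16.43. The 336 probes above 16 had a median change of -0.64 units at 5 days and a 5th percentile of -1.24. The change of H1f2 thus lay within the range of probes of like level. H1f3, the other of the 2 brightest H1 probes, lay between 6.87 and 7.33 in all arrays.

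**Figure D3:**
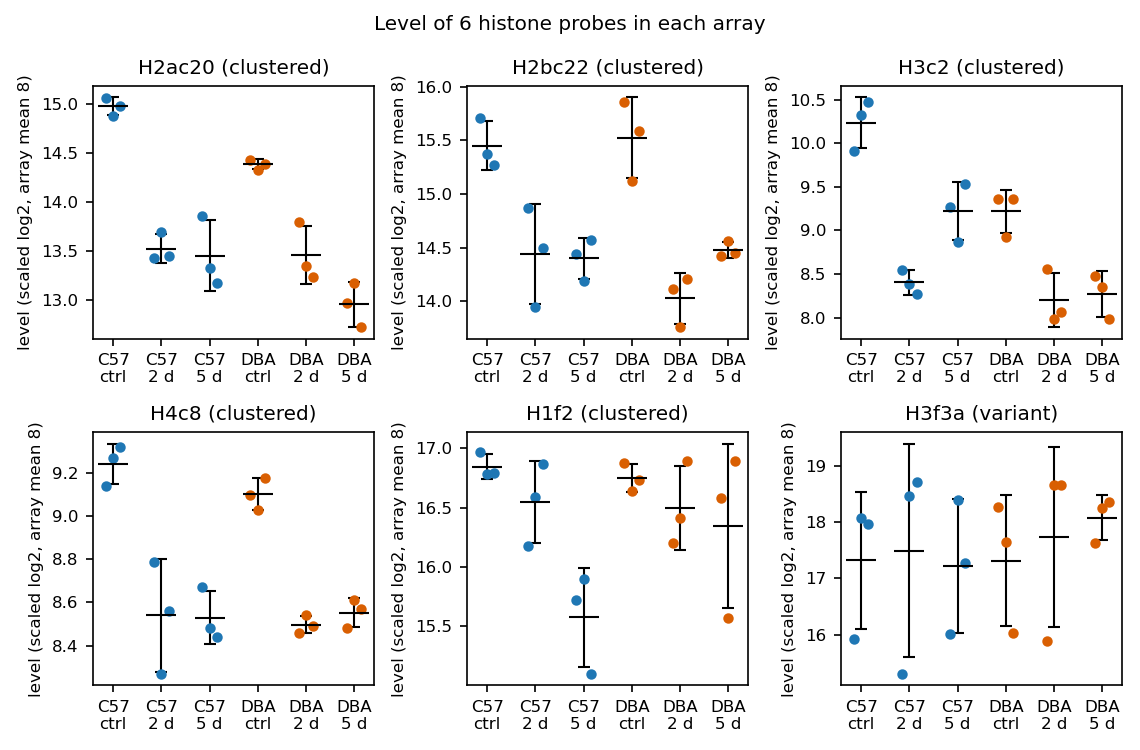
Level of 6 histone probes in each of 18 arrays (blue C57BL/6J, orange DBA/2J; ctrl, control; d, days after crush), in scaled log2 units with an array mean of 8; points are arrays, bars the mean and SD of 3. H2ac20, H2bc22, H3c2 and H4c8 lie below controls in every crushed array, H1f2 does so in C57BL/6J at 5 days, and H3f3a has a wide spread in 5 groups and no call.

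The variant histones gave no call in any of the 11 comparisons. Over the strains 0 of the 8 variant probes at 2 days and 1 at 5 days had an unadjusted p under 0.05. Of all 46116 probes 4427 did at 2 days and 10928 at 5 days. Of the 8 variant probes the smallest adjusted p in limma after crush over the strains was that of H1f10, a linker histone, at 5 days (-0.24 ± 0.09 units, adjusted p = 0.117). H2ax, whose phosphorylated form marks DNA breaks, changed by -0.30 ± 0.25 units at 2 days and -0.09 ± 0.25 at 5 days, with levels of 8.93 to 10.48 in all arrays. H2az1, the H2A variant found at promoters, changed by -0.13 ± 0.40 and -0.44 ± 0.40 units. H3f3a and H3f3b, which encode the same H3.3 protein, changed by 0.29 ± 0.69 and 0.33 ± 0.69 units (H3f3a) and by 0.12 ± 0.36 and -0.02 ± 0.36 units (the bright H3f3b probe). H1f7 and H1f8, known from male and female germ cells, stayed between 6.49 and 7.34. At these errors a fall of 1 unit would not have been detectable in H3f3a, H2az1 or the bright H3f3b probe. At 2 days this held for H2ax and the other H3f3b probe (SE 0.20 units) too. For scale, the clustered H2bc14 changed by -1.06 ± 0.20 units then and was not called (limma, adjusted p = 0.0364). H1f7, H1f8 and H1f10 had mean levels of 6.87 to 6.89, under the median of 7.19 over all probes and arrays, which leaves little room for a fall.

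That spread had a common form. H3f3a was 15.92 in replicate 1 of the C57BL/6J controls and 18.07 and 17.96 in the other two, 15.31 against 18.46 and 18.70 at 2 days, and 16.01 against 18.39 and 17.27 at 5 days. In DBA/2J the low arrays were replicate 3 of the controls (16.03 against 18.27 and 17.64) and replicate 1 at 2 days (15.88 against 18.65 and 18.66), with no such gap at 5 days (17.62, 18.25 and 18.35). The same array was lowest in all 6 groups for H2az1 and the clustered H2bc18, and in 5 of 6 for 8 further member probes, among them H3c10, H3c13, the dim H2bc4 probe and the bright H3f3b probe. The dim H2bc4 probe ranged from 7.61 to 13.72, with a within-group SD of 2.22 units, whereas the median SD was 0.27 for clustered and 0.42 for variant probes. In 5 of 6 groups the array lowest for H3f3a had the highest median signal of its group. Probes called after crush differed in their within-group SD, from 0.13 units for H4c8, 0.22 for H2ac20 and 0.29 for H2bc22 to 0.50 for H2ac7 and 0.56 for the bright H2ac10 probe. The part of this spread in the results was not tested.

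**Figure D4:**
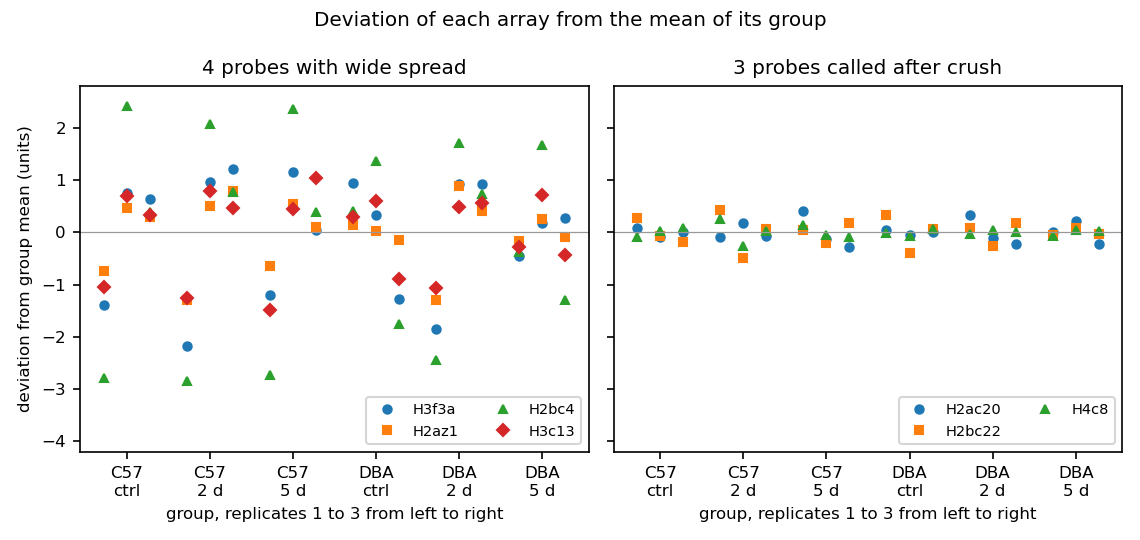
Deviation of each array from the mean of its group, in units, for 4 histone probes with wide spread (left; H2bc4 is its dim probe) and 3 probes called after crush (right); the 3 points per group and probe are the replicates (C57, C57BL/6J; DBA, DBA/2J; ctrl, control; d, days). On the left the same array is lowest for all 4 probes in 5 of 6 groups, the exception being DBA/2J at 5 days, and the 3 called probes on the right, whose within-group SDs are 0.13 to 0.29 units, lie closer to 0.

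Between the strains, no member was called in controls (0.00434% of all probes), where 25 clustered probes had an unadjusted p under 0.05 in limma, 21 of them lower in DBA/2J. Of all 46116 probes 3194 had such a p, 1485 of them lower in DBA/2J. Over the mean of the conditions 5 clustered probes of 4 genes were called, against 0.733% of all probes. Both probes of H2ac6 were lower in DBA/2J, by 0.92 ± 0.19 and 0.72 ± 0.13 units (limma, adjusted p = 0.0278 and 0.0167). The brighter H2ac6 probe was 9.29, 9.51 and 9.73 in C57BL/6J controls and 8.03, 7.62 and 8.36 in DBA/2J controls. After crush it ran from 7.75 to 8.95 in C57BL/6J and from 7.52 to 8.68 in DBA/2J. These ranges overlapped only through C57BL/6J 2-day replicate 3 (7.75) and DBA/2J 2-day replicate 1 (8.68), the arrays singled out above. Among the other crushed arrays all C57BL/6J levels lay above all DBA/2J levels. The cause of the overlap was not tested. H3c2 was 0.73 ± 0.12 units lower in DBA/2J (adjusted p = 0.0157), and 1 of 2 H4c6 probes was 0.58 ± 0.10 units lower (adjusted p = 0.0169), whereas its other probe was 0.67 ± 0.31 units higher (adjusted p = 0.505). The bright H4c9 probe was 1.10 ± 0.22 units higher in DBA/2J (adjusted p = 0.0264), with control levels of 12.41, 12.27 and 11.82 against 10.85, 11.05 and 11.06 in C57BL/6J, and its other probe differed by 0.13 ± 0.14. The count was 0 when any one of 12 of the 18 arrays was left out, and ran up to 11 without the others.

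Genes that act on histones were read beside the 0.18% of all probes called at 2 days and the 4.81% called at 5 days. Of 12 measured genes for processing of stem-loop histone mRNA none was called at either time over the strains, with medians of -0.02 and -0.01 units, and 1 at 2 days and 0 at 5 days had an unadjusted p under 0.05. Slbp, which binds the stem-loop, changed by 0.18 ± 0.08 units at 5 days (adjusted p = 0.219), and Npat, an activator of clustered histone transcription, by 0.44 ± 0.25 (adjusted p = 0.319). Of 21 histone chaperones none was called at 2 days and 2 at 5 days, both lower: Nap1l4, a carrier of H2A and H2B (-0.72 ± 0.13 units, limma, adjusted p = 0.00612), and Supt16, a subunit of the FACT complex (-0.97 ± 0.22, adjusted p = 0.017). Among 6 further variants outside the naming rule Macroh2a1, which encodes macroH2A, fell by 0.65 ± 0.16 units at 5 days (adjusted p = 0.0219). Of 20 acetylases and deacetylases Crebbp rose by 1.26 ± 0.24 units at 5 days (adjusted p = 0.00728) from a dim probe. For these last 2 lists the number of called genes is not given here. A single call in a list of 20 is to be read beside the 4.81% of all probes called at 5 days. Of 23 genes of proliferation and S phase none was called at either time, with medians of 0.00 and 0.06 units, and 13 of them had a mean level under 8. At 2 days 1 of these had an unadjusted p under 0.05, and at 5 days at least 4 did, among them Top2a (-0.25 ± 0.08 units, adjusted p = 0.0716) and Mcm4 (0.47 ± 0.16, adjusted p = 0.0944). The same cutoff in limma was passed by 4427 of all 46116 probes at 2 days and by 10928 at 5 days.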

How the data were processed

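Retinal RNA was hybridized to Illumina Sentrix Mouse-6 V1.0 BeadChips. The authors deposited 2 tables: non-normalized signal intensity per probe, with the background correction not given in the sources used here, and normalized values that are a score, 2 times the z-score of log2 intensity within each array plus 8. The score was recomputed from the deposited intensity; 99.7% of all probes and all 95 histone probes equalled the deposited score within 0.02 units. There were 0 other columns of per-sample values. Gene symbols came from the platform annotation, updated through RefSeq.

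Group means were fitted over 18 arrays with limma 3.58.1 in R 4.3.3 (residual df 12, prior df 2.88), with Benjamini-Hochberg adjustment over 46116 probes and a threshold of 0.03. Python 3.11.15, numpy 2.4.6, pandas 2.3.3, scipy 1.17.1 and matplotlib 3.10.9 were used for the rest. Scripts were tested on simulated data. Named were every called probe, the brightest probe of each variant gene and the 2 brightest clustered probes of each family. Members and lists were chosen with earlier results of these data known. Replicates were separate mice. The number of arrays limits the precision, and the BeadChip of each array is not given in the sources used here, so that no chip was fitted as a batch. Replicate numbers have no meaning given in the sources; deviations of same-numbered arrays correlated by 0.479, 0.415 and 0.266 between C57BL/6J controls and 2 days, so those were counted as paired, and not all exceeded 0.1 in the other pairs of groups. Alternatives were quantile normalization with or without normexp (offset 50), the deposited scores, the brighter 50% of the probes, a threshold of 0.05, an intensity trend, a replicate block, single arrays left out, 16 arrays, and, for comparisons of 2 groups, arrays of those groups alone and SAM, the study's test.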

Additional observations from a re-analysis of the deposited data

Results flagged for a closer look

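The H4c6 probe 102450672 had changes of opposite sign in the strains at 5 days. It changed by -0.40 units in C57BL/6J (limma, adjusted p = 0.222), where all 3 arrays lay below the mean of the controls. In DBA/2J it changed by 0.06 units, and all 3 arrays lay above that mean. These DBA/2J levels, 7.90 to 7.97, were within the range of the controls, 7.75 to 8.07, so no movement was seen there. The changes differed by 0.46 units, and this difference was not called in limma (adjusted p = 0.999).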

How the results depend on the processing

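No call of a histone probe changed direction under any alternative that was run: over calls and alternatives, 769 kept the call and 305 lost it. Of 55 calls, 23 were kept without each single array. Over the strains at 5 days H2ac20, H2ac11 and H4c8 were called in 20 of 20 alternatives, and H1f2 in 5. The count of called probes in controls between the strains (0) was 6 with 16 arrays, 3 with arrays of the 2 groups alone and 9 with SAM. For C57BL/6J at 2 days (4) it was 1 with an intensity trend, 0 with the 2 groups alone and 14 with SAM, and 0 to 6 with 1 array left out (0 without control replicate 2 or 3 or 2-day replicate 2 or 3, and 1 without control replicate 1). For C57BL/6J at 5 days (9) it was 5 with the trend, 17 with SAM, and 3 to 7 with 1 array left out (3 without control replicate 1 or 3, 5 without 5-day replicate 1 or 2). For DBA/2J at 2 days (0) it was 1 under quantile normalization, 1 with normexp before it and 1 with the replicate block. For DBA/2J at 5 days (1) it was 2 under quantile normalization, 2 with the replicate block, 0 with the trend, 0 with the 2 groups alone, and 0 to 1 with 1 array left out (0 without control replicate 1). Over the strains at 2 days (14) it was 2 with the trend, 5 with 16 arrays, and 7 to 17 with 1 array left out (7 without C57BL/6J control replicate 3 or 2-day replicate 2, DBA/2J control replicate 1 or 2-day replicate 2 or 3; 8 without C57BL/6J control replicate 2; 9 without C57BL/6J 2-day replicate 3). Over the strains at 5 days (22) it was 14 to 23 with 1 array left out, and 14 without C57BL/6J control replicate 3 or 5-day replicate 2, or DBA/2J control replicate 1 or 5-day replicate 1. Between the strains over the conditions (5) it was 8 at a threshold of 0.05, 12 with 16 arrays, and 0 to 11 with 1 array left out. With the replicate block, C57BL/6J at 2 days, which counted as paired, had 5 calls, and the changes over the strains had 15 at 2 days and 22 at 5 days. The cause of these shifts was not tested. The 16 arrays leave out C57BL/6J 2-day replicate 3 and DBA/2J 2-day replicate 1, which an earlier analysis found near the controls of the other strain. Leaving out C57BL/6J control replicate 1 for its Xist level was chosen after seeing the data. Among the brighter 50% of probes, which are fewer, the clustered medians were -0.83 and -0.57 units in C57BL/6J at 2 and 5 days, -0.43 and -0.44 in DBA/2J, and -0.46 over the strains at 5 days. Dim probes, 37 of the 87 clustered, limit what can be read.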
